A study of Mus musculus with 6 samples.

Results

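AP-1 and immediate early genes were followed in sorted cells of mouse small-cell lung cancer, as 10 genes named by symbol: Fos, Fosb, Fosl2, Jun, Junb, Jund, Egr1, Egr3, Atf3 and Ier3. All 10 were measured, among 22179 genes in all. A gene stood for itself through array rows whose annotation names it alone, and Jund, with a second such row, through the row with the higher mean. Tumours came from mice with conditional alleles of Rb, p53 and p130, which were deleted by intratracheal Adeno-Cre, and with a GFP reporter allele for Hes1, a repressor of transcription that Notch signalling switches on. Both populations carried these alleles and received Cre. At 5 to 6 months after Cre, tumours pooled from 3 mice were sorted into GFP-high cells and GFP-negative cells, the second labelled negative or low, with 3 arrays (Affymetrix Mouse Gene 2.0 ST) of each. The sources used here give neither the lung cells that took up the virus nor whether each array had its own pool of mice, so p-values measure the spread between these samples.

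AP-1 is a transcription factor made of a Fos protein paired with a Jun protein through leucine zippers, and ATF proteins can take a place in the pair. Genes of this kind are called immediate early genes because growth factors, membrane depolarisation or stress switch them on within minutes without new protein synthesis, through MAP kinases acting on serum response factor (SRF) and its cofactors and on CREB. Their transcripts are short-lived, and dissociating a tissue into single cells is itself a known inducer. EGR proteins are zinc finger factors of the same early wave, and Ier3 is a small stress-response protein known as a target of NF-kB and p53.

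The bases before the transcription start are shown for Ier3, the member that rose, and for Fos, the prototype of the family, which did not pass the test. Both are RefSeq sequences of GRCm38.p6 on the plus strand, 250 bases that end just before the start: chr17:35821463-35821712 for Ier3 and chr12:85473640-85473889 for Fos. Capitals mark matches to the NF-kB consensus, to the CRE core TGACG and to the letters TATAAA.
Ier3: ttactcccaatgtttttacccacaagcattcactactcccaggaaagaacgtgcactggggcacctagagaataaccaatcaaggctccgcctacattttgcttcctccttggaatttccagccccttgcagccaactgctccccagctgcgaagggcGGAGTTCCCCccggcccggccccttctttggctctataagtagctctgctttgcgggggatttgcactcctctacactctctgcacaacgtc
Fos: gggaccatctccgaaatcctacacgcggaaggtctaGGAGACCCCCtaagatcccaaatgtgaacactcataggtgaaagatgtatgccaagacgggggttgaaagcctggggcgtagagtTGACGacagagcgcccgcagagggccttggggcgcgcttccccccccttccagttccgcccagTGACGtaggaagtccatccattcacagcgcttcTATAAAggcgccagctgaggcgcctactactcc

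Ier3 held an NF-kB match on the reverse strand at bases -92 to -83 from the start, and Fos held one on the reverse strand at -214 to -205. Fos also held TGACG at -129 to -125 and at -66 to -62, and TATAAA at -33 to -28. Promoters of 8 members were matched by symbol and searched on both strands. Those of Egr1 and Egr3 were not searched. NF-kB matches lay in 4 of the 8 (Fos, Fosb, Fosl2 and Ier3), against 3.90% of 32851 mouse promoter windows of the same length. The CRE core TGACG lay in 4 (Atf3, Fos, Fosb and Junb), against 17.8%. The N box CACNAG, a motif bound by Hes factors, lay in 4 (Fosb, Ier3, Jun and Junb), against 36.7%. The full CRE TGACGTCA (1.55% of windows), the AP-1 site TGACTCA (4.46%), the EGR site GCGTGGGCG (0.536%) and the CArG box bound by SRF (1.47%) were in none of the 8 windows. A match is a run of letters in this window only. Bases further upstream were not searched, so a motif absent here may lie outside the window.

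Hes1 followed the sort, with log2 values of 10.49, 10.27 and 10.43 in GFP-high arrays against 6.93, 6.98 and 6.65 in GFP-negative arrays. All 8 measured neuroendocrine markers, among them the granin Chga and the synaptic vesicle protein Syp, were lower in GFP-high cells. Their mean log2 level was 7.30 to 8.32 in GFP-high arrays, with replicate 3 the highest, and 9.95 to 9.98 in GFP-negative arrays. Markers of club cells (8 of 8), alveolar type 2 cells (8 of 8) and alveolar type 1 cells (8 of 8) were higher in GFP-high cells, with mean log2 levels of 12.31 to 12.49 against 7.55 to 8.39, 10.21 to 10.75 against 6.00 to 6.54, and 8.93 to 9.22 against 6.57 to 6.76. Leukocyte markers had 1 of 9 lower (Coro1a) and none higher, with mean levels of 5.39 to 5.84 in GFP-high and 5.61 to 5.86 in GFP-negative arrays. Endothelial markers had 1 of 7 higher (Kdr), at 5.36 to 5.39 against 4.71 to 4.81. Fibroblast markers had 1 of 7 lower (Dcn), at 5.46 to 6.15 against 5.63 to 5.72. Ciliated cell markers had 1 of 5 higher (Dynlrb2) and 1 lower (Rsph1), at 5.65 to 6.13 against 5.25 to 5.61. Kdr (log2 fold change 3.87) and Dynlrb2 (3.10) raised the GFP-high means of their lists. The other endothelial and ciliated markers had log2 fold changes between -0.59 and 0.42. RMA values have no zero, so no marker can be listed at 0. The part of these cell types in the results below was not tested, and fewer cells of a type and less RNA per cell cannot be told apart in bulk samples.

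The genes of the group did not move together. Ier3 was 7.80-fold higher in GFP-high cells, Egr3 was 4.31-fold lower and Egr1 1.46-fold lower, and Fosl2 was 1.33-fold lower with a call that depended on the settings. Fos, Fosb, Jun, Junb, Jund and Atf3 did not pass the test. That makes 4 of 10 called, 1 higher and 3 lower, at an adjusted p under 0.05 by limma, against 30% of all genes tested (13.0% higher and 17.0% lower). The groups did not overlap for 6 of the 10, against 44.6% of all genes, with GFP-high above for 2 (20.0% of all genes) and below for 4 (24.6%). Their median log2 fold change, GFP-high minus GFP-negative, was -0.19 and that of all genes was 0.01. A count of 4 of 10 is near that background and is not read as a result about the group, whose members are therefore given one by one.

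**Figure D1:**
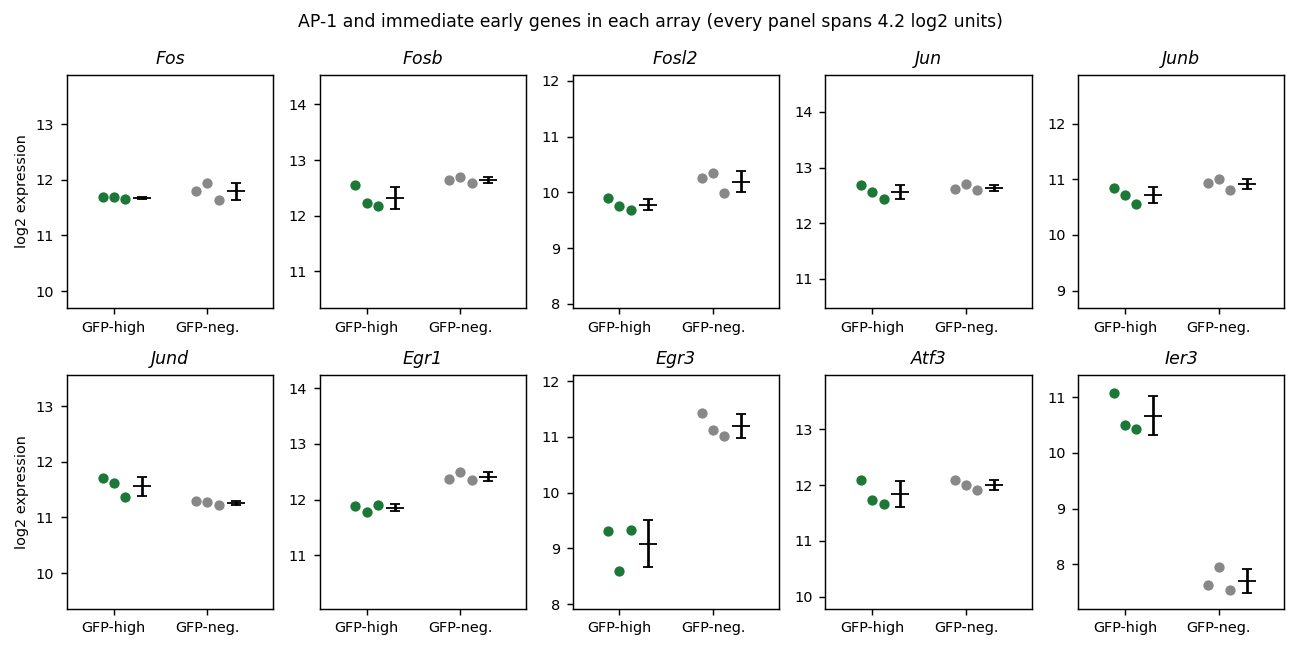
Log2 expression of each of the 10 genes in every array, GFP-high (green) left of GFP-negative (grey), with dots for replicates 1 to 3 from left to right and bars for mean and SD (n = 3 per group). Every panel spans the same range of log2 units, so that Ier3 and Egr3 stand out by the gap between their groups while the values of Fos, Jun, Junb and Atf3 overlap.

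Fos, the partner that cannot form a dimer with itself, read 11.69, 11.69 and 11.65 in GFP-high arrays, against 11.79, 11.94 and 11.64 in GFP-negative arrays. The groups overlapped, and the log2 fold change was -0.11 ± 0.12 (SE, n = 3 per group; adjusted p = 0.526 by limma). The 95% interval, -0.38 to 0.15, spans a fold of 0.768 to 1.11, so a larger difference on the array scale lies outside it. These values lie in the upper part of that scale (highest value 13.72), as do those of Fosb, Jun and Atf3. RMA compresses folds near the ends of the scale, so a larger difference in transcript level may not show. Fosb, a Fos relative whose product builds up in neurons under repeated stimulation, read 12.55, 12.23 and 12.18 in GFP-high arrays and 12.65, 12.69 and 12.58 in GFP-negative arrays. Every GFP-high value of Fosb was below every GFP-negative one, by a narrow margin in replicate 1, but it did not pass (log2 fold change -0.32 ± 0.13, adjusted p = 0.102 by limma). It passed after quantile normalization (0.0314), with trend and robust moderation (0.0421) or without GFP-high replicate 1 (0.0404).

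Fosl2, which encodes the Fos-related antigen FRA2, read 9.89, 9.75 and 9.69 in GFP-high arrays and 10.26, 10.34 and 9.98 in GFP-negative arrays. All 3 GFP-high values were lower, and the closest pair were GFP-high replicate 1 and GFP-negative replicate 3. Its log2 fold change of -0.41 ± 0.13 was just past the threshold (adjusted p = 0.0448 by limma). The call was lost in 8 of 14 alternative fits, among them 5 of the 6 that left out an array (all but GFP-negative replicate 3, with adjusted p between 0.0613 and 0.133). The fall of Fosl2 is therefore a call at the margin. Fosl1, the remaining Fos relative, was not analysed here.

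Jun, the prototype Jun protein and a substrate of the JNK kinases, read 12.68, 12.56 and 12.44 in GFP-high arrays and 12.61, 12.70 and 12.59 in GFP-negative arrays. The groups overlapped, with a log2 fold change of -0.07 ± 0.11 (adjusted p = 0.685 by limma) and a 95% interval of -0.33 to 0.18. Junb, a Jun relative that often restrains proliferation, read 10.85, 10.72 and 10.56 in GFP-high arrays and 10.93, 11.00 and 10.81 in GFP-negative arrays. These also overlapped (log2 fold change -0.20 ± 0.12, 95% interval -0.48 to 0.07, adjusted p = 0.260 by limma).

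Jund, the Jun gene with the most constant expression in resting cells, had values of 11.70, 11.61 and 11.37 in GFP-high arrays against 11.29, 11.28 and 11.22 in GFP-negative arrays. It was the only Fos or Jun gene here with a positive log2 fold change, 0.30 ± 0.12, and its groups did not overlap, but it did not pass (adjusted p = 0.106 by limma). The second Jund row of the array read 9.08, 9.70 and 9.46 in GFP-high arrays and 8.82, 8.99 and 8.66 in GFP-negative arrays. When every row was tested on its own, that row passed as higher (0.59 ± 0.17, adjusted p = 0.0313 by limma). The mean of both rows passed too (0.44, adjusted p = 0.0241). Both rows ran in 1 direction. The row used also passed with trend and robust moderation (0.0443) and without GFP-high replicate 3 (0.048), so the call depended on the settings. Over the 6 Fos and Jun genes, log2 fold changes lay between -0.41 and 0.30, with a median of -0.16.

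Atf3, a stress-induced factor of the ATF family that can pair with Jun proteins, read 12.10, 11.74 and 11.66 in GFP-high arrays and 12.10, 12.01 and 11.92 in GFP-negative arrays. GFP-high replicate 1 was as high as the highest GFP-negative array. The log2 fold change was -0.17 ± 0.14 (95% interval -0.49 to 0.15, adjusted p = 0.420 by limma). It did not pass in any of the 14 alternative fits, and the same holds for Fos, Jun and Junb.

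Egr1, a zinc finger factor induced through SRF by growth factors, read 11.88, 11.78 and 11.91 in GFP-high arrays and 12.37, 12.50 and 12.35 in GFP-negative arrays. The groups were well apart relative to their spread, and Egr1 fell by 0.55 ± 0.11 on the log2 scale (95% interval -0.80 to -0.30, adjusted p = 0.00492 by limma). Egr3, a related factor known for its part in muscle spindles, lymphocytes and neurons, fell as well. It read 9.32, 8.60 and 9.33 in GFP-high arrays and 11.43, 11.13 and 11.02 in GFP-negative arrays, a log2 fold change of -2.11 ± 0.21 (95% interval -2.59 to -1.62, adjusted p = 0.000129 by limma). The intervals of Egr1 and Egr3 did not overlap, and the difference between them was not tested. Both calls held in all 14 alternative fits. Neuroendocrine markers were lower in the same GFP-high arrays (list median -2.34).

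The other EGR genes, named here after their values were seen, lay on the same side. Egr4 read 7.40, 6.42 and 7.62 in GFP-high arrays and 9.95, 9.60 and 9.43 in GFP-negative arrays (log2 fold change -2.51 ± 0.29, adjusted p = 0.000281 by limma). Egr2 read 8.54, 7.68 and 8.57 against 10.17, 9.84 and 9.80 (-1.67 ± 0.24, adjusted p = 0.000826 by limma). All 4 EGR genes were thus lower in GFP-high cells, and GFP-high replicate 2 was the lowest array for each of them. The mean log2 level of the neuroendocrine markers was 7.60, 7.30 and 8.32 in GFP-high replicates 1, 2 and 3, and its part in the fall of the EGR genes was not tested. The EGR corepressors Nab1 (0.07 ± 0.11) and Nab2 (0.05 ± 0.14) did not pass.

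Ier3 was the member with the widest gap between the groups. It read 11.07, 10.50 and 10.43 in GFP-high arrays and 7.63, 7.95 and 7.53 in GFP-negative arrays, with every GFP-high value more than 2 log2 units above every GFP-negative one. The log2 fold change was 2.96 ± 0.19 (95% interval 2.53 to 3.40, adjusted p = 1.10e-05 by limma), a fold of 5.76 to 10.6, and it passed in all 14 alternative fits. The same GFP-high arrays had higher markers of club cells (list median 4.92) and of alveolar type 2 (4.60) and type 1 cells (1.99).

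**Figure D2:**
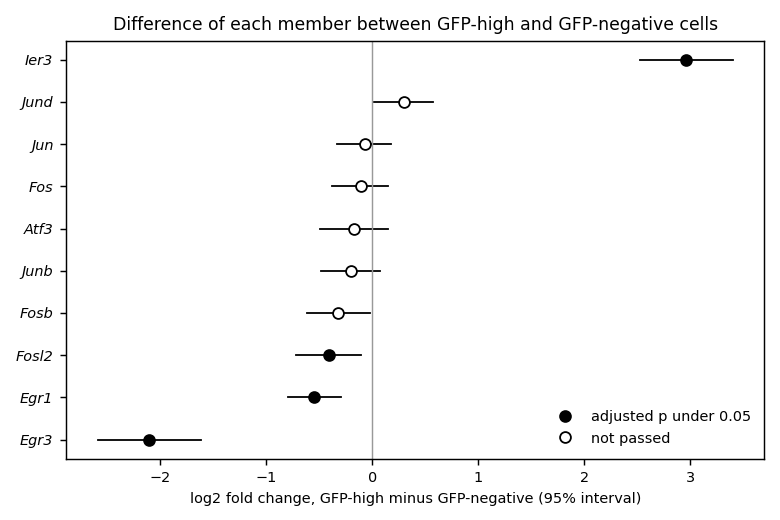
Log2 fold change of each of the 10 genes, GFP-high minus GFP-negative (points), with the 95% interval of the fit (lines, not adjusted for the number of genes), ordered from Egr3 at -2.11 to Ier3 at 2.96. Filled points passed at an adjusted p under 0.05, and the intervals of Fos, Jun, Junb and Atf3 include 0.

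The genes whose pattern over the 6 arrays was most like that of Ier3, by the root mean square difference of centred log2 values, were the transcription factor Tfap2a (0.144), the nectin-like adhesion protein gene Pvr (0.154) and Phlda1 (0.155). Phlda1 read 10.23, 9.54 and 9.42 in GFP-high arrays and 6.46, 6.64 and 6.36 in GFP-negative arrays. Like Ier3, it was highest in GFP-high replicate 1. Those most like Egr3 were Arhgap20 (0.079), the nocturnin gene Noct (0.106) and the tubulin gene Tubb6 (0.117). Noct read 6.49, 6.01 and 6.45 in GFP-high arrays and 8.72, 8.34 and 8.11 in GFP-negative arrays, and shared with Egr3 the dip in GFP-high replicate 2. These genes were picked for their likeness, so their differences are given as a description.

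Within each group the members shared some of their highest and lowest arrays. GFP-high replicate 1 gave the highest GFP-high value for 8 of the 10 genes, against 33.1% of all genes tested. GFP-high replicate 3 gave the lowest for 8 of the 10, against 33.9% of all genes. GFP-negative replicate 3 gave the lowest GFP-negative value for all 10, against 34.4% of all genes, while the highest was in replicate 2 for 7 genes and in replicate 1 for 3. The exceptions in the GFP-high group were Egr1 and Egr3, which were highest in replicate 3 and lowest in replicate 2. The shifts were small for most genes, with a median deviation from the group mean of 0.14 in GFP-high replicate 1, -0.13 in GFP-high replicate 3 and -0.10 in GFP-negative replicate 3. The largest were 0.40 for Ier3 in GFP-high replicate 1 and -0.48 for Egr3 in GFP-high replicate 2. A list of 32 other immediate early genes was most often highest in GFP-high replicate 1 (22 of 32) and lowest in GFP-negative replicate 3 (25 of 32). Unlike the members, it was more often lowest in GFP-high replicate 2 (18 of 32) than in GFP-high replicate 3 (13 of 32). No cause of these shifts was tested.

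**Figure D3:**
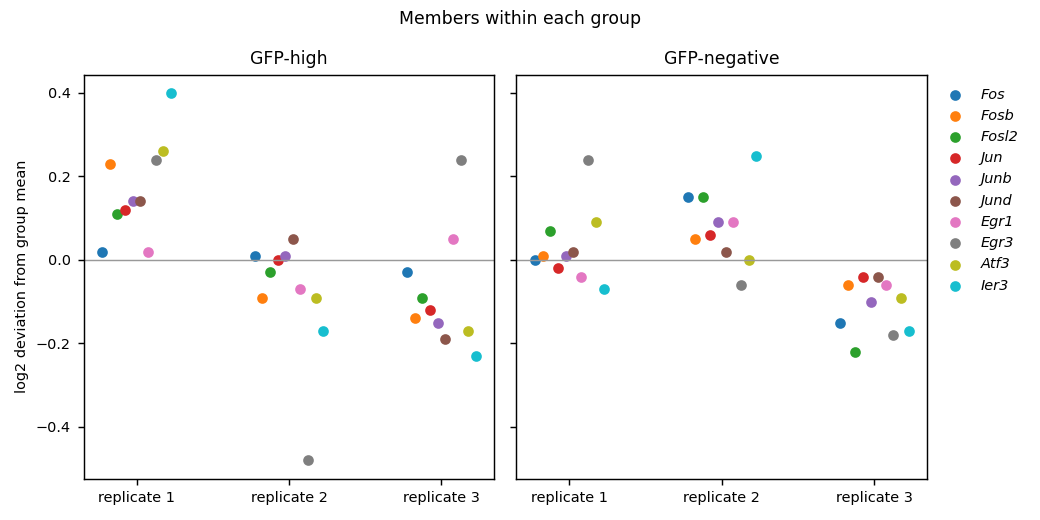
Deviation of each gene's log2 value from the mean of its own group, by replicate, for GFP-high (left) and GFP-negative arrays (right), 1 point per gene. All 10 points lie below 0 in GFP-negative replicate 3 and all 10 lie above 0 in GFP-high replicate 1, while Egr3 lies at -0.48 in GFP-high replicate 2.

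Beyond the members, the 32 other immediate early genes changed in both directions. Of these, 10 rose, 16 fell and 6 did not pass (median log2 fold change -0.49). The share called was 81.2%, against 30% of all genes tested, and the difference between these shares was not tested. Log2 fold changes ran from -2.75 to 5.10. Prostaglandin synthase 2, Ptgs2, read 11.24, 10.71 and 10.88 in GFP-high arrays and 6.08, 5.77 and 5.67 in GFP-negative arrays (5.10 ± 0.17, adjusted p = 3.28e-07 by limma). Zfp36l1, whose product speeds the decay of messages with AU-rich elements, read 12.21, 12.23 and 12.05 in GFP-high arrays against 7.17, 7.52 and 6.55 in GFP-negative arrays (5.08 ± 0.22). The matricellular gene Ccn1 rose by 3.03 ± 0.26. Npas4, a factor induced by calcium entry in neurons, fell furthest, at 6.36, 5.74 and 6.87 in GFP-high arrays against 9.14, 8.95 and 9.13 in GFP-negative arrays (-2.75 ± 0.25, adjusted p = 7.59e-05 by limma). Arc, a synaptic immediate early gene named here after its value was seen, fell by 1.83 ± 0.19 on the log2 scale. The orphan nuclear receptor genes, likewise named after their values were seen, differed in sign. Nr4a1 fell (-0.74 ± 0.17), Nr4a3 rose (0.97 ± 0.15) and Nr4a2 did not pass (0.76 ± 0.30, adjusted p = 0.0916 by limma).

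Of 10 other genes that neurons induce with activity, 9 were measured, of which 6 fell, none rose and 3 did not pass (median -1.78). The share that fell was 66.7%, against 17.0% of all genes tested. The granin Scg2 (-2.09 ± 0.30), the G protein regulator Rgs2 (-2.05 ± 0.21), the prohormone convertase Pcsk1 (-2.05 ± 0.29) and the synaptotagmin Syt4 (-2.01 ± 0.28) led the falls. Several of these are also neuroendocrine genes, and the neuroendocrine markers fell in the same arrays (8 of 8). Bdnf, the best known of the list and named after its value was seen, had a log2 fold change of -0.02 ± 0.13 and did not pass. It read 4.32, 4.51 and 4.51 in GFP-high arrays and 4.65, 4.39 and 4.35 in GFP-negative arrays. These values lie below the array medians (5.30 to 5.43), where a fall may not show.

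Among 11 measured relatives of the AP-1 proteins, 3 rose, 1 fell and 7 did not pass (median 0.03). The share called, 36.4%, is near the 30% of all genes. Jdp2, a repressor that pairs with Jun proteins, read 7.52, 7.36 and 6.83 in GFP-high arrays and 5.66, 5.50 and 5.59 in GFP-negative arrays (1.65 ± 0.18, adjusted p = 0.00018 by limma). Creb5 (1.02 ± 0.16) and Atf7 (0.77 ± 0.12), both of the ATF2 family, rose as well. Maf did not pass (-0.96 ± 0.36, adjusted p = 0.0811 by limma), with 4.87, 5.22 and 5.40 in GFP-high arrays and 5.68, 5.60 and 7.08 in GFP-negative arrays, where replicate 3 stood apart. The gene that fell was the small Maf protein gene Maff (-0.63 ± 0.11), named after its value was seen.

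Regulators of the pathway were measured too. Of 7 SRF-related genes, Srf fell and Elk3, an SRF cofactor, rose, and 5 did not pass, Elk1 (-0.28 ± 0.14) and Mrtfb (-0.21 ± 0.11) among them. The share called, 28.6%, is near the 30% of all genes and is not read as a result about this list. Srf read 9.10, 8.98 and 8.88 in GFP-high arrays and 10.34, 10.05 and 10.02 in GFP-negative arrays (-1.14 ± 0.13, adjusted p = 0.000242 by limma). Elk3 was higher by 1.52 ± 0.11. Of 7 measured kinases that act on AP-1 or on SRF cofactors, none rose and 4 fell (57.1%, against 17.0% of all genes). They were the JNK genes Mapk10 (-1.75 ± 0.21) and Mapk8 (-0.94 ± 0.13), the stress kinase gene Rps6ka5 (-0.61 ± 0.14) and the p38 gene Mapk14 (-0.47 ± 0.13).

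Of 10 MAP kinase phosphatase genes, which end the signal and are themselves induced by it, 6 fell, 1 rose and 3 did not pass (median -0.92). The share called was 70%, against 30% of all genes, and the difference between these shares was not tested. Dusp4 fell by 1.71 ± 0.25, Dusp5 by 1.35 ± 0.16, Dusp2 by 1.33 ± 0.29 and Dusp10 by 1.28 ± 0.15 on the log2 scale. Dusp1 was the exception that rose (0.45 ± 0.12, adjusted p = 0.0234 by limma), and it is named after its value was seen. Neuroendocrine markers, with a list median of -2.34, were lower in the same arrays.

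Of 13 measured genes known in other settings as AP-1 targets, 5 rose, none fell and 8 did not pass (median 0.30). Among those 8, Mmp3, Mmp9, Mmp10, Mmp13 and Timp1 had group means of 3.98 to 5.09. These lie below the array medians (5.30 to 5.43), where a fall may not show. The share that rose was 38.5%, against 13.0% of all genes tested, and the difference between these shares was not tested. The hyaluronan receptor Cd44 rose by 2.22 ± 0.18, the cytokine Il6 by 2.05 ± 0.35, cyclin D1 (Ccnd1) by 1.33 ± 0.10 and haem oxygenase 1 (Hmox1) by 1.05 ± 0.12 on the log2 scale. Il6 read 6.77, 5.36 and 5.40 in GFP-high arrays and 3.96, 3.48 and 3.91 in GFP-negative arrays, with GFP-high replicate 1 apart from the others. Heat shock genes, which respond to handling stress as immediate early genes do, split into 3 higher, 3 lower and 4 not passing of 10 (median -0.23). Of the heat shock genes 60% were called, against 30% of all genes, and this difference was not tested. Hspa1b (2.06 ± 0.33), Hspa1a (1.72 ± 0.30) and Hspb1 (1.35 ± 0.19) rose and Hsph1 fell (-1.23 ± 0.35). Hspa1a and Hspa1b are near-identical copies, so their values may not be independent.

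**Figure D4:**
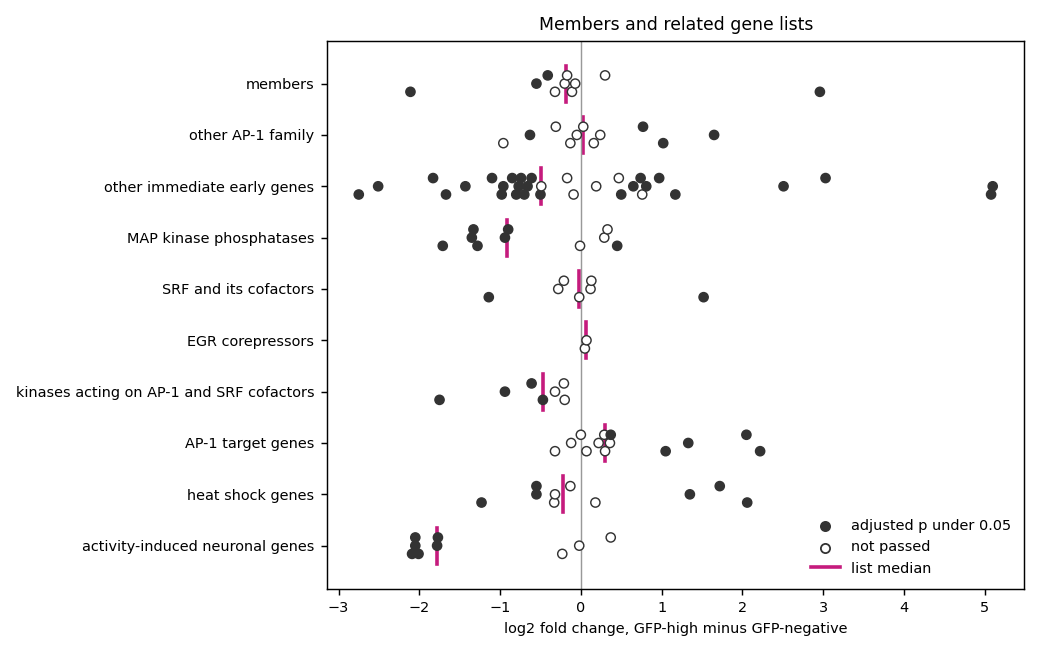
Log2 fold change, GFP-high minus GFP-negative, of every measured gene of the 10 members and of 9 related lists (points, filled at an adjusted p under 0.05), with the list median as a bar. Other immediate early genes spread from -2.75 to 5.10, and the activity-induced neuronal genes lie mostly near -2.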

How the data were processed

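The authors deposited log2 expression made with RMA, per the submitters' processing notes, which name no version. RMA corrects background, normalizes between arrays and summarises probes. It can hide a change common to most genes and compresses folds near the ends of the scale. The log2 scale follows from the values (0.989 to 13.72, array medians 5.30 to 5.43). Arrays correlated at 0.987 to 0.991 within groups and 0.918 to 0.940 between groups, over 22179 genes, which are no independent replicates.

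Of 41344 rows, 23520 named exactly 1 gene, 1814 several and 16010 none. The row with the highest mean stood for a gene, with no filter on level. GFP-high was compared with GFP-negative with limma 3.58.1 in R 4.3.3 (lmFit, eBayes, no block, two-sided, Benjamini-Hochberg over all genes, calls at an adjusted p under 0.05), tested on simulated data. A permutation of 3 against 3 arrays cannot give a p below 0.10, so none is reported. The number of arrays limits the precision.

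The members, the 9 related lists, the 9 marker lists (1, red blood cell genes, not analysed here) and the motifs were chosen with earlier results of these data known. The text names all members, the up to 4 genes of each list with the largest absolute log2 fold change, and for Ier3 and Egr3 the 3 genes most alike; others, single cell type markers included, were named after their values were seen. Alternatives were quantile normalization, median centring, a filter that drops the lowest 30% of genes, the mean of a gene's rows, every row alone, trend and robust moderation, array weights, a replicate block, leaving out each array, and a log2 fold change of at least 1.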

Additional observations from a re-analysis of the deposited data

How the results depend on the processing

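Ier3, Egr3 and Egr1 kept their direction and their call in all 14 alternative fits, with log2 fold changes of 2.76 to 3.09, -2.23 to -1.87 and -0.60 to -0.50. No member changed direction in any of them. Fosl2 lost its call in 8, with adjusted p between 0.0199 and 0.133 over the 14, including median centring (0.0585), quantile normalization (0.0588) and the replicate block (0.0522). Fosb and Jund each gained a call in 3, with adjusted p from 0.0314 to 0.251 for Fosb and from 0.0241 to 0.287 for Jund. Jund passed with the mean of both rows, with trend and robust moderation (0.0443) and without GFP-high replicate 3 (0.048). With each of these settings 2 members were called higher in place of 1. Leaving out each array in turn gave 3 to 4 members called, 1 to 2 higher and 2 to 3 lower, 54 to 59 of the 101 related genes (60 with all arrays) and 5408 to 6116 of all genes. Requiring a log2 fold change of at least 1 left 2 members (1 lower), 34 related genes and 2584 of all genes (11.7%).

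The replicate number as a block gave 3 members called (1 higher, 2 lower) and 6172 genes, against 6661 without it. Deviations from group means correlated at 0.11, -0.03 and -0.00 for the 3 same-numbered pairs across all genes, and at -0.07 to 0.06 for the other pairs. With so few arrays, such values cannot tell whether same-numbered samples share a pool of mice. The main fit used no block.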
